A study of Homo sapiens with 12 samples.

Results

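The genes described here are 10 regulators of entry into and passage through mitosis: the cyclins CCNA2, CCNB1 and CCNB2, the kinase CDK1, the phosphatases CDC25B and CDC25C, the kinases PLK1, AURKA and NEK2, and CDC20. They were taken by gene symbol from 23195 genes listed for both Nutlin-3a comparisons, and all 10 were listed in each of the 4 deposited tables. PolyA RNA was sequenced from HCT116, an established colon cancer line of human origin that carries wild-type p53. Cells carried siControl, the control siRNA, or siRFX7, directed at the transcription factor RFX7, and spent 24 h with 10 µM Nutlin-3a, which blocks MDM2 and so stabilises p53, or with DMSO alone. Crossing siRNA and treatment gives 4 groups of 3 libraries, all of 1 cell line. The labels name the siRNA in the sample titles, but neither its sequence nor how many siRNAs were combined nor whether replicates were separate cultures, so p-values measure the spread between these libraries, which may be technical.

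Mitosis begins when CDK1 bound to a B-type cyclin becomes active. Cyclin A primes this step, CDC25 phosphatases remove the inhibitory phosphates that WEE1 and PKMYT1 place on CDK1, and PLK1 and AURKA speed the switch and build the spindle. NEK2 separates the centrosomes, and CDC20 later directs the anaphase-promoting complex (APC/C) to the cyclins. When p53 is active, its target p21, encoded by CDKN1A, inhibits cyclin-dependent kinases, and RB-family proteins together with the MuvB core (the DREAM complex) keep many of these genes silent. DREAM reaches G2/M promoters through a short element called the CHR, often near CCAAT boxes that bind NF-Y. RFX7 is itself activated in cells with active p53 and drives a set of growth-restraining genes.

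The promoters are shown first, because DREAM is known to reach many G2/M promoters through such elements. Whether they bear on the levels measured here was not tested. RefSeq promoter windows (GRCh38.p14, 250 bases before to 50 after each transcription start) were found by symbol for 9 of the 10 genes, with 16 windows in all, and AURKA had no entry. The 6 stretches below run 5′ to 3′ from 130 bases before the start to 20 bases from it. They are CCNB2 and PLK1 with the hexamer close to the start, CCNB1 and CCNA2 with a variant of it there, NEK2 without any, and CDC25B, the least repressed member. Capitals mark matches on either strand to the following elements. The first is the CHR in its usual form TTTGAA, or its less common form with a central CG, which reads TTCGAA. Related hexamers were also searched, namely CTTGAA as found in CCNA2 and, as found in CCNB1, the letters TTTAAA. The box bound by NF-Y is CCAAT, which appears as ATTGG when it lies on the other strand. E2F sites were searched as TTTCGCGC and, in a form that differs by a single letter, as TTTGGCGC.
CCNB2 (chr15:59105016-59105165, plus strand): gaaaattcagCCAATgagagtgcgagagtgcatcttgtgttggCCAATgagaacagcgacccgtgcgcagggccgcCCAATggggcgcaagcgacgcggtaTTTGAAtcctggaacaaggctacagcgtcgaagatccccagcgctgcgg
CCNB1 (chr5:69167020-69167169, plus strand): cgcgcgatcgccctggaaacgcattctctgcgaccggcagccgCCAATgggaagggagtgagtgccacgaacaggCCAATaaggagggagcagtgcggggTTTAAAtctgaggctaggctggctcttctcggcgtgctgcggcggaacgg
CCNA2 (chr4:121823864-121824013, minus strand): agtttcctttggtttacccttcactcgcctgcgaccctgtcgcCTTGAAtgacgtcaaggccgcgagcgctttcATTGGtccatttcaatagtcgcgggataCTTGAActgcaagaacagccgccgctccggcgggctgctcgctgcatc
PLK1 (chr16:23678759-23678908, plus strand): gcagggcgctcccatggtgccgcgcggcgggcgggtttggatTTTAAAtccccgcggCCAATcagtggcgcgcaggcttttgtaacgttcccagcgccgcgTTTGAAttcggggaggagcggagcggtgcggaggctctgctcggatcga
NEK2 (chr1:211675602-211675751, minus strand): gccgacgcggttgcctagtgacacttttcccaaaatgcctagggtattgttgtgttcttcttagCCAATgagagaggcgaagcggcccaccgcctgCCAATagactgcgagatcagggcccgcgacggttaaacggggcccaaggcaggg
CDC25B, the third of its 4 starts (chr20:3796180-3796329, plus strand): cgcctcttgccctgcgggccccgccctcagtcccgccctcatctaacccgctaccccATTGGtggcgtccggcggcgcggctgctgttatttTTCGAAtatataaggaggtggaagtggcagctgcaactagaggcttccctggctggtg

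At least 1 window held TTTGAA or TTCGAA in 6 of the 9 genes, against 19.5% of the 27305 genes with a window. By window the counts were 8 of 16, against 16.4% of 35116 windows of the same length. CCAAT was present in all 9 genes, against 39.7% of genes, and in 12 of the 16 windows, against 34.6% of windows. Either hexamer together with CCAAT in the same window was found in 6 of 9 genes, against 7.85% of genes. The variants CTTGAA and TTTAAA were added after the letters had been seen. With them, 8 of 9 genes held a hexamer, and NEK2 was the exception. The genes gained were CCNA2 and CCNB1, whose own letters gave the variants, so this gain was fixed in advance. The share of 36.7% over all genes is therefore no test of this count. An E2F site of the listed letters was found only in CDK1, against 1.40% of genes. CDK1, CDC25B and CDC25C have 2, 4 and 4 windows and so more room for a match, and 3 pairs of these windows overlap. Within a window none of the 42 matches overlapped another. Sites in a stretch shared by overlapping windows were counted in each window. These were a CCAAT and a TTTGAA of CDC25C and the TTTCGCGC of CDK1, so the window counts include repeats.

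In several genes the hexamer, or a variant added after the letters were seen, lay at nearly the same distance from the start. The share of all windows with a hexamer at that distance, or with a given CCAAT spacing, was not computed. Its first base was at -29 in CCNB2 and PLK1 and at -30 in the fourth CDC25C window, and the variant was at -30 in CCNB1 and -28 in CCNA2. In CDC25B it was at -38, and in CDC20 at -178 and -65. In CDK1 it was at -161 in the first window and at -69, -13 and 10 in the second. Other matches to the variants lay at -87 in CCNA2, -193 in CCNB2 and -148 and -88 in PLK1. They also lay at -131 in the first CDK1 window and at 33 in the fourth CDC25B window. From the first base of the nearest upstream CCAAT match (either strand) to the first base of the hexamer were 25 bases in CCNB2 and CCNB1, 28 in CCNA2, 35 in CDC25B and CDC20, 44 in PLK1 and 55 in the fourth CDC25C window. Spacing was measured only for hexamers on the gene's own strand, which leaves out the match at 10 in the second CDK1 window. The other measured hexamers with a CCAAT upstream were spaced differently. The distance was 9 and 33 in the second CDK1 window, 19 in its first and 51 at the distal variant of CCNB2. The second CDC25C window overlaps the fourth and holds the same pair of sites, there numbered -12 and 44. These are matches of letters and no measure of binding.

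**Figure D1:**
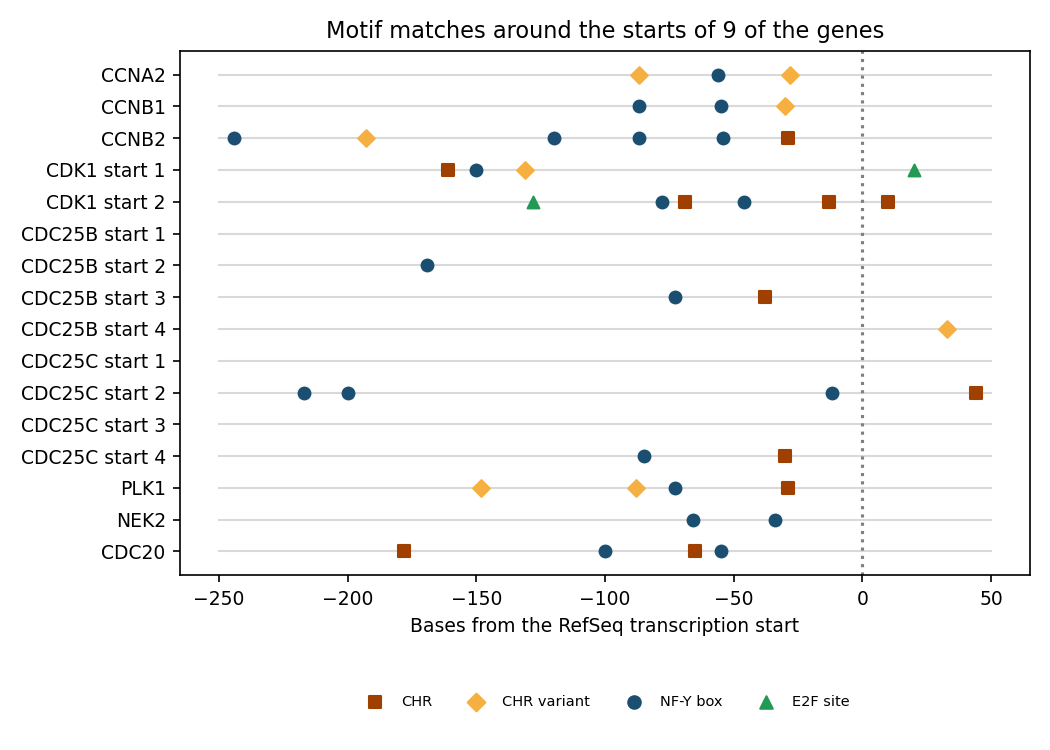
Positions of motif matches in the 16 RefSeq windows of 9 genes, in bases from the transcription start (dotted line), with 1 row per window. Squares mark TTTGAA or TTCGAA, diamonds the variants, circles CCAAT and triangles E2F sites. Matches near -30 to a hexamer or a variant appear in CCNA2, CCNB1, CCNB2, PLK1 and the fourth CDC25C start. Further matches in CCNA2, CCNB2 and PLK1 lie elsewhere, as do those of CDC20, CDC25B and CDK1. NEK2 holds only CCAAT matches.

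The deposited tables give statistics for groups, so no value per library can be shown. Group means of normalized counts (counts divided by the authors' size factors) were recovered from the mean count and the fold changes, and errors are the authors' standard errors. The log2 fold changes, standard errors and adjusted p of the Nutlin-3a and siRFX7 effects are those of the authors' deposited tables throughout. Mean normalized counts summed to 26801484 per library, and the depth of single libraries is unknown. RFX7, the knockdown target, stood at 944 normalized counts (siControl) and 185 (siRFX7) with DMSO, and at 1332 (siControl) and 302 (siRFX7) with Nutlin-3a, so both siRFX7 groups lay below both siControl groups. Of 7 epithelial markers fixed for the check of the cell line, all were listed, from 8 mean normalized counts for VIL1 to 80338 for KRT8. The 3 leukocyte and 2 endothelial markers were not among the listed genes, and the fibroblast markers COL1A1, PDGFRB and COL1A2 had means of 441, 19.4 and 1.42.

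Before treatment all 10 genes were well expressed. Compared per kilobase of exon (GENCODE 29 union of exons), the siControl DMSO level ran from 182 normalized counts per kilobase for CDC25C to 4820 for CDC20. CCNB1 came second with 3460 per kilobase, and its level was 3.79 times that of CCNB2. The annotation used by the authors for counting is not given in the sources used here, so these lengths are approximate.

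Nutlin-3a lowered every member under both siRNAs. In siControl cells 10 of 10 were called lower, by the authors' DESeq2 test (adjusted p under 0.05), where 21.2% of all genes were called lower and 22.0% higher. In siRFX7 cells the count was again 10 of 10, with 19.7% of genes lower and 21.7% higher. The median log2 fold change of the members was -4.31 in siControl and -5.47 in siRFX7, against 0.02 and -0.02 over all genes. In these bulk samples fewer cells in G2 and mitosis and less RNA per cell cannot be told apart. Adjusted p was listed as 0 for 7 of the members under each siRNA, and the largest was 5.81e-108 in siControl and 6.69e-72 in siRFX7, both for CDC25C (DESeq2).

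CCNA2, the cyclin of S phase and G2 (ENSG00000145386, GRCh38 chromosome 4 from 121816444 to 121823933, minus strand), went from a mean of 4886 normalized counts with DMSO to 130.4 with Nutlin-3a in siControl cells, and from 3801 to 56.9 in siRFX7 cells. Both Nutlin-3a groups were far below both DMSO groups, and the siRFX7 Nutlin-3a group was lowest. The log2 fold change with Nutlin-3a was -5.23 in siControl (standard error 0.09) and -6.06 in siRFX7 (standard error 0.12) in the authors' deposited tables. Treated cells thus kept 2.67% and 1.497% of the CCNA2 level in DMSO.

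CCNB1, the main mitotic B cyclin (ENSG00000134057, chromosome 5 from 69167010 to 69178245, plus strand), went from 8850 to 624 normalized counts in siControl and from 8148 to 287 in siRFX7. CCNB2, the Golgi-associated B cyclin (ENSG00000157456, chromosome 15 from 59105078 to 59125045, plus strand), went from 2559 to 153.9 and from 2234 to 45.8. For both, the DMSO groups lay close together and the Nutlin-3a groups apart. CCNB1 kept 7.05% of its DMSO level in siControl (6.70% to 7.43% at 1 standard error) and 3.53% in siRFX7 (3.33% to 3.74%). CCNB2 kept 6.01% (5.64% to 6.42%) and 2.05% (1.86% to 2.26%). Per kilobase the level of CCNB1 relative to CCNB2 went from 3.79 times with DMSO to 4.44 times with Nutlin-3a in siControl, and from 3.99 to 6.87 times in siRFX7.

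CDK1, the catalytic partner of these cyclins (ENSG00000170312, chromosome 10 from 60778331 to 60794852, plus strand), went from 4924 to 252 normalized counts in siControl and from 3769 to 148 in siRFX7. It kept 5.13% of its DMSO level in siControl (4.82% to 5.45% at 1 standard error) and 3.93% in siRFX7 (3.67% to 4.21%). Of its activating phosphatases, CDC25B (ENSG00000101224, chromosome 20 from 3786772 to 3806121, plus strand) went from 7076 to 2455 normalized counts in siControl and from 5168 to 1450 in siRFX7. It kept 34.7% of its level in siControl and 28.1% in siRFX7, the mildest falls of the set.

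CDC25C, the phosphatase that acts at the onset of mitosis (ENSG00000158402, chromosome 5 from 138285265 to 138338355, minus strand), went from 609 to 17.6 normalized counts in siControl and from 548 to 6.06 in siRFX7. It kept 2.89% of its DMSO level in siControl (2.47% to 3.39% at 1 standard error) and 1.11% in siRFX7 (0.862% to 1.42%). Its last mean lies near the floor of 3 counts used here for a detectable level, and its standard errors, 0.23 and 0.36, were the widest of the members. The exons of CDC25C share 293 bases (8.78% of its exon length) with FAM53C on the other strand, and CCNA2 shares 254 bases (9.08%) with EXOSC9. FAM53C had a mean of 2410 normalized counts and EXOSC9 of 1409 over all groups, far above CDC25C and CCNA2 in siRFX7 cells with Nutlin-3a. Strand handling is not given in the sources used here, so reads in those stretches cannot be assigned. Per kilobase the level of CDC25B relative to CDC25C went from 8.99 times with DMSO to 107.8 times with Nutlin-3a in siControl, and from 7.29 to 185 times in siRFX7.

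PLK1, the polo kinase (ENSG00000166851, chromosome 16 from 23677656 to 23690367, plus strand), went from 7732 to 252 normalized counts in siControl and from 5841 to 88.2 in siRFX7. It kept 3.25% (3.08% to 3.44% at 1 standard error) and 1.51% (1.40% to 1.63%). Of its exon length 11.6% is shared with the antisense gene AC008870.3, whose mean was 2.60 counts. AURKA, which activates PLK1 (ENSG00000087586, chromosome 20 from 56369389 to 56392337, minus strand), went from 3315 to 397 normalized counts in siControl and from 3212 to 317 in siRFX7, and kept 11.97% and 9.88%. For both kinases the treated groups lay far below the DMSO groups. Per kilobase the level of AURKA relative to PLK1 went from 0.697 times with DMSO to 2.56 times with Nutlin-3a in siControl, and from 0.894 to 5.85 times in siRFX7.

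NEK2, the centrosome kinase (ENSG00000117650, chromosome 1 from 211658657 to 211675630, minus strand), went from 1899 to 46.7 normalized counts in siControl and from 1558 to 10.4 in siRFX7. It kept 2.46% of its level in siControl (2.20% to 2.75% at 1 standard error) and 0.670% in siRFX7 (0.552% to 0.812%), the lowest estimates of the set under both siRNAs. CDC20, the APC/C activator (ENSG00000117399, chromosome 1 from 43358955 to 43363203, plus strand), went from 9822 to 490.2 and from 7898 to 195.4 and kept 4.99% and 2.47%.

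**Figure D2:**
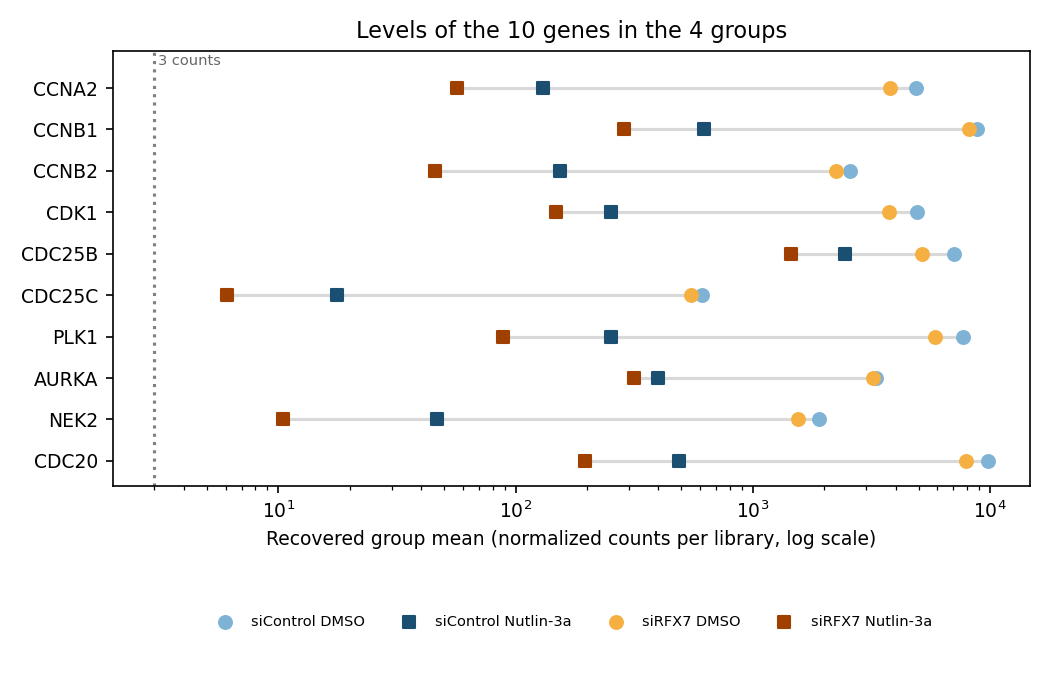
Recovered group means of the 10 genes in normalized counts per library on a log axis, 1 row per gene, with circles for DMSO and squares for Nutlin-3a. The dotted line marks 3 counts. In every row the siRFX7 Nutlin-3a group is lowest, down to 6.06 for CDC25C, and CDC25B stays highest among treated cells.

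Processed pseudogenes named after 3 of the members were listed, and reads could pass between them and their parents. CDC20P1 had a mean normalized count equal to 29.3% of that of CDC20, and went from 2958 to 162.2 in siControl and from 2221 to 53.8 in siRFX7. NEK2P4 and CCNB2P1 amounted to 6.92% and 3.37% of their parents, and both had means below 3 counts in siRFX7 Nutlin-3a. With pseudogene counts added, the Nutlin-3a log2 fold change in siRFX7 was -5.34 for CDC20, -7.27 for NEK2 and -5.62 for CCNB2, each within 1 standard error of the value without them.

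The order of the falls was tested between neighbours only by their standard errors. In siControl the log2 fold changes ran from -5.35 for NEK2 through CCNA2, CDC25C, PLK1, CDC20, CDK1, CCNB2 and CCNB1 to -3.06 for AURKA and -1.53 for CDC25B. Only 3 of the 9 neighbouring pairs differed by more than 2 standard errors of their difference: PLK1 from CDC20, CCNB1 from AURKA, and AURKA from CDC25B. In siRFX7 the order ran from -7.22 for NEK2 to -3.34 for AURKA and -1.83 for CDC25B, and 4 of 9 pairs differed by this measure.

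Because CDC25B fell least, it came to hold the largest part of what was left. Over the 10 genes, normalized counts summed to 51672 in siControl DMSO and 4819 in siControl Nutlin-3a, so that 9.33% remained, and to 42178 and 2606 in siRFX7, so that 6.18% remained. Without CDC25B the shares left were 5.30% and 3.12%. CDC25B made up 9.43% of the summed level per kilobase in siControl DMSO and 8.34% in siRFX7 DMSO, but 39.8% in siControl Nutlin-3a and 44.8% in siRFX7 Nutlin-3a. CDC20 went the other way, from 27.7% and 27.0% in DMSO to 16.8% and 12.8% in Nutlin-3a.

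**Figure D3:**
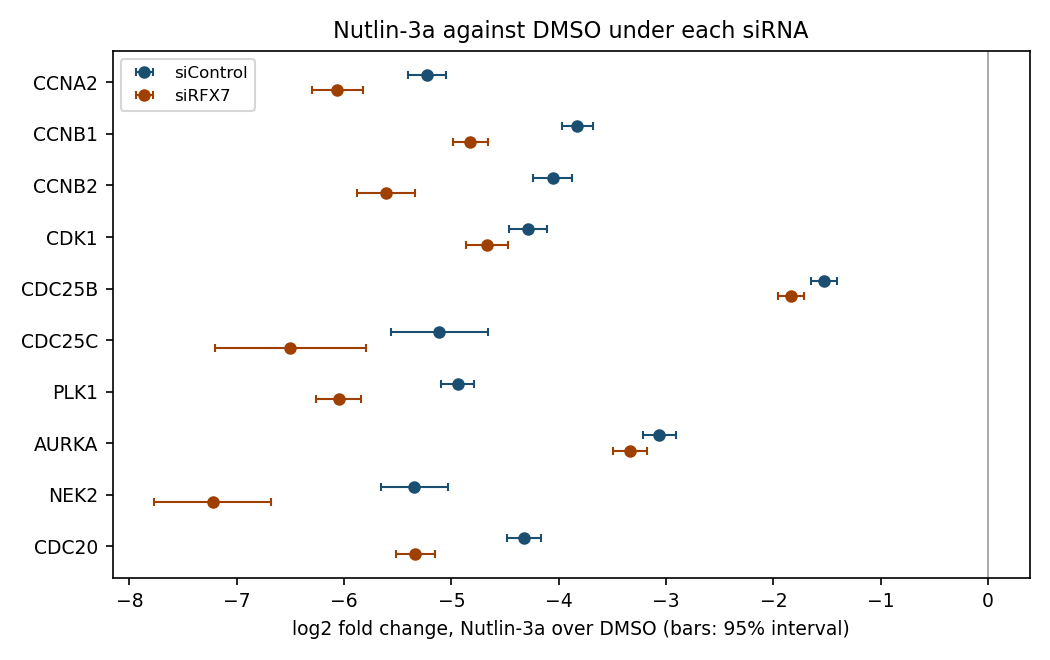
Log2 fold change of Nutlin-3a over DMSO for each gene in siControl and siRFX7 cells, with 95% intervals from the authors' standard errors. In every row the siRFX7 point lies left of the siControl point, and for CDK1, CDC25B and AURKA the intervals lie close together or overlap.

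The central comparison asks whether Nutlin-3a repressed these genes to a different depth once RFX7 was knocked down. It was made as the difference of both Nutlin-3a log2 fold changes, siRFX7 minus siControl, with a z test adjusted over all 23195 genes. The difference was called below 0 for 8 of the 10 members and above 0 for none, where 2.92% of all genes were called below and 3.28% above. The member median was -1.01, against 0.003 over all genes. By this difference the response ratio, the fraction left in siRFX7 relative to that in siControl, was 27.2% for NEK2, 34.1% for CCNB2 and 38.2% for CDC25C. It was 46.4% for PLK1, 49.6% for CDC20, 50.02% for CCNB1 and 56.1% for CCNA2.

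The B cyclins, CDC20 and PLK1 had the smallest adjusted p. For CCNB2 the difference was -1.55 (standard error 0.17, 95% interval -1.88 to -1.22, adjusted p 1.03e-17 by the z test on DESeq2 estimates). For CCNB1 it was -0.999 (standard error 0.11, adjusted p 1.32e-16), and for CDC20 it was -1.01 (standard error 0.12, adjusted p 4.60e-14), by the same test. PLK1 differed by -1.11 (standard error 0.13, adjusted p 3.69e-14) and CCNA2 by -0.83 (standard error 0.15, adjusted p 3.59e-06) by the z test on DESeq2 estimates. NEK2 had the lowest estimate, -1.88, with a wide 95% interval of -2.50 to -1.25 (adjusted p 4.66e-07 by the z test on DESeq2 estimates).

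The remaining members differed less or less surely. CDC25C had a difference of -1.39 with a standard error of 0.43 (adjusted p 0.0230), and CDC25B one of -0.31 with a standard error of 0.09 (adjusted p 0.0117), by the z test on DESeq2 estimates. Both lost their calls at a threshold of 0.01, with Bonferroni adjustment, and with a t distribution on 8 degrees of freedom. CDK1 had a difference of -0.38 (95% interval -0.64 to -0.12, adjusted p 0.0585 by the z test on DESeq2 estimates) and was not called. With genes under 10 mean counts left out, or with either other scaling, CDK1 passed, at an adjusted p of 0.0345 to 0.0448 on DESeq2 estimates. AURKA had a difference of -0.28 (95% interval -0.50 to -0.06, adjusted p 0.140 by the z test on DESeq2 estimates), so a difference of the size seen in CCNB1 lay outside its interval.

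Ordered by this difference, the members split once by more than 2 standard errors between neighbours. The 7 genes from NEK2 at -1.88 to CCNA2 at -0.83 formed the lower run, in which no neighbouring pair differed by that measure. CDK1, CDC25B and AURKA followed from -0.38 to -0.28. The gap between CCNA2 and CDK1 was 0.45 on the log2 scale with a standard error of 0.20, and it was noticed after the values were seen.

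The difference equals the siRFX7 effect in Nutlin-3a minus the siRFX7 effect in DMSO, so these comparisons describe it from the other side. In DMSO 7 of 10 members were called lower with siRFX7 and none higher, with 15.5% of the 20026 genes in that comparison lower and 13.5% higher in the authors' DESeq2 table. The median log2 fold change was -0.30, against -0.003 over those 20026 genes. CCNA2, CCNB2, CDK1, CDC25B, PLK1, NEK2 and CDC20 fell, by 0.20 in CCNB2 to 0.45 in CDC25B on the log2 scale. CDC25C had a log2 fold change of -0.15, CCNB1 of -0.12 and AURKA of -0.05, with adjusted p of 0.373, 0.188 and 0.682 (DESeq2). No neighbouring pair in the order differed by more than 2 standard errors.

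The DMSO calls depended on scaling. With groups scaled to equal summed counts, or to the median of a housekeeping list, CCNB2 and NEK2 were no longer called, at adjusted p of 0.0815 to 0.223 on DESeq2 estimates, and AURKA turned to 0.011 and 0.040. Over the genes tested the split in DMSO was 3107 lower and 2704 higher, which became 2262 and 3391 with equal sums and 1943 and 3912 with the housekeeping median. CDKN1A was also higher with siRFX7 in DMSO, by 1.29 on the log2 scale (adjusted p 5.01e-39, DESeq2), with group means of 5493 normalized counts in siControl DMSO and 13389 in siRFX7 DMSO. Its part in the lower G2/M levels was not tested.

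In Nutlin-3a 10 of 10 members were called lower with siRFX7, with 13.6% of the 19393 genes in that comparison lower and 15.0% higher in the authors' DESeq2 table. The median log2 fold change was -1.26, against 0.002 over those 19393 genes. The B cyclins stood at 29.7% (CCNB2) and 46.1% (CCNB1) of the siControl Nutlin-3a level, PLK1 at 35.0%, CDC20 at 39.9% and CCNA2 at 43.6%. NEK2 stood at 22.3% (18.1% to 27.6% at 1 standard error) and CDC25C at 34.4% (25.9% to 45.7%). CDK1 and CDC25B stood at 58.7% and 59.1%, and AURKA at 79.9% with the largest adjusted p of the set, 0.00202 (DESeq2). Only 2 of 9 neighbouring pairs differed by more than 2 standard errors, CCNB1 from CDK1 and CDC25B from AURKA. The split over the genes tested, 2641 lower and 2913 higher, became 1735 and 4387 with the housekeeping median, and the member count stayed at 10 under both scalings.

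**Figure D4:**
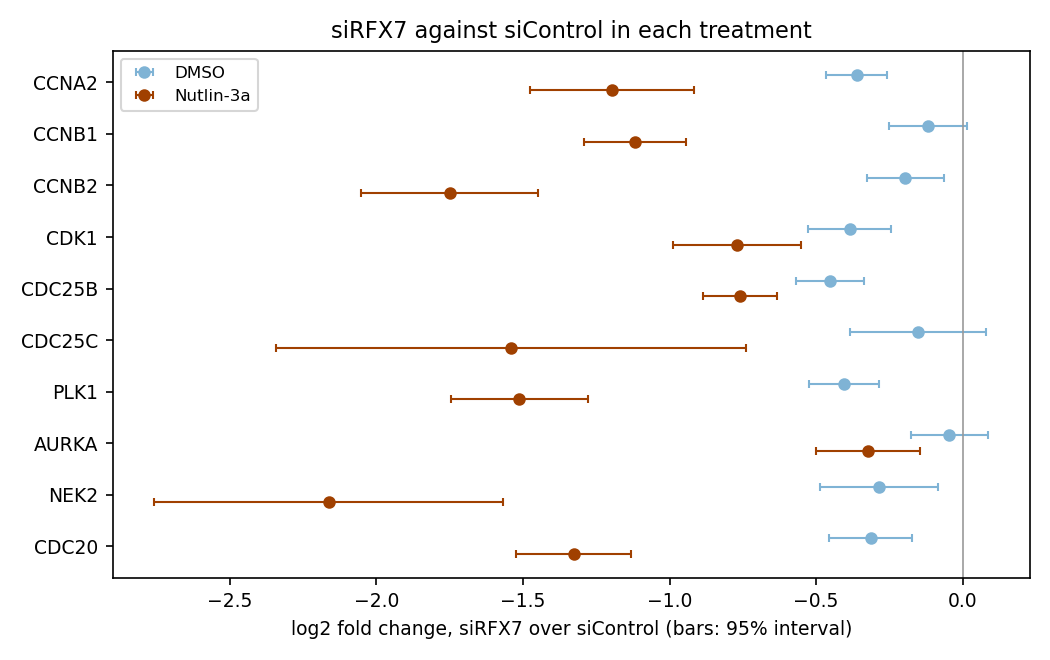
Log2 fold change of siRFX7 over siControl for each gene in DMSO and in Nutlin-3a, with 95% intervals from the authors' standard errors. The DMSO points lie between -0.45 and -0.05 and the Nutlin-3a points between -2.16 and -0.32.

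Other genes of the same pathway give the setting. Of 12 further CDK1 regulators, 11 were listed, and 7 were lower with Nutlin-3a under each siRNA. Over all genes 21.2% were lower in siControl and 19.7% in siRFX7. The difference between the siRNAs was called for 2 of these 11, both below 0, and the list median was 0.007. Of all genes, 2.92% were called below 0 and 3.28% above. They were GTSE1, a mitotic microtubule protein that restrains p53, at -1.79 (standard error 0.27), and CKS2, a CDK1-binding subunit, at -0.99 (standard error 0.17). The kinases that hold CDK1 inactive had values above 0 that were not called, 0.23 for WEE1 and 0.37 for PKMYT1, as had the phosphatase CDC25A at 0.21 (adjusted p 0.201, 0.277 and 0.401 by the z test on DESeq2 estimates). With Nutlin-3a in siControl, WEE1, PKMYT1 and CDC25A had log2 fold changes of -2.33, -3.66 and -2.96.

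Of 22 further mitotic kinases and partners, 21 were listed, of which 14 were lower and 5 higher with Nutlin-3a under each siRNA. Over all genes 21.2% were lower and 22.0% higher in siControl, and 19.7% and 21.7% in siRFX7. The difference was called below 0 for 8 of them and above 0 for none, against 2.92% and 3.28% of all genes. The list median was -0.09. The chromosomal passenger kinase AURKB stood at -1.30, its partner BIRC5 (survivin) at -1.21 and the checkpoint kinase BUB1 at -1.14. CDCA8 stood at -1.08, PBK at -0.70 and TTK at -0.54. TPX2, which activates AURKA on the spindle, was not called, with a difference of -0.09 and a 95% interval of -0.23 to 0.04. PLK2 and PLK3, polo kinases induced by p53, were raised by Nutlin-3a, by 2.22 and 2.42 in siControl and by 1.37 and 1.99 in siRFX7, and were also called below 0. For these a value below 0 is a smaller rise, not a deeper fall.

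Of 21 genes of the APC/C and its ligases, all listed, the difference was called below 0 for 2, above 0 for 1, and the median was 0.07. Of all genes, 2.92% were called below 0 and 3.28% above, so the single call above 0 is near the share over all genes. UBE2C, the E2 enzyme of the APC/C, stood at -1.11 and the checkpoint protein MAD2L1 at -0.36. The small subunit CDC26 stood at 0.86. FBXO5, an APC/C inhibitor, had log2 fold changes of -3.99 and -4.02 with Nutlin-3a and a difference of -0.03 (95% interval -0.33 to 0.28). The core subunit CDC27 had -0.65 and -0.49 with Nutlin-3a.

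Among 15 genes of MuvB, its partners and NF-Y, the difference was called below 0 for 2 and above 0 for 2, with a median of 0.002. The shares over all genes were 2.92% below and 3.28% above. The 2 below 0 were FOXM1 at -0.99 (standard error 0.14) and MYBL2 at -0.72 (standard error 0.13), the transcription factors that switch on G2/M genes. With Nutlin-3a FOXM1 went from 4823 to 221 normalized counts in siControl and from 3109 to 71.4 in siRFX7, and MYBL2 from 4668 to 198.5 and from 3615 to 93.6. Both were lowest in siRFX7 Nutlin-3a, as the 10 members were, and their part in the members' levels was not tested. Above 0 were the MuvB subunit LIN52 at 0.46 and TFDP1, the partner of E2F, at 0.22.

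The p53 side moved differently. Nutlin-3a raised CDKN1A by 4.46 in siControl and 3.53 in siRFX7, the 14-3-3 protein SFN by 2.69 and 2.04, and GADD45A by 1.81 and 1.39 (log2, from the authors' deposited tables). Of 6 p53-linked G2 inhibitors, these 3 had a difference called below 0, against 2.92% of all genes. With Nutlin-3a, CDKN1A was nevertheless higher in siRFX7 than in siControl, with group means of 154897 and 121149 normalized counts (log2 fold change 0.35, adjusted p 0.00117, DESeq2). MDM2, the p53 ligase and target, had means of 74982 in siControl Nutlin-3a and 64905 in siRFX7 Nutlin-3a. With Nutlin-3a it was thus lower with siRFX7 (log2 fold change -0.21, adjusted p 0.00456, DESeq2), where CDKN1A was higher. Nutlin-3a raised MDM2 by 3.99 in siControl and 3.30 in siRFX7 (log2). This difference was -0.69 (adjusted p 1.90e-12 by the z test on DESeq2 estimates). In DMSO, MDM2 was higher with siRFX7, by 0.49 (adjusted p 1.19e-12, DESeq2).

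Replication licensing genes, which act earlier in the cycle, were all lower with Nutlin-3a, 17 of 17 under each siRNA. Over all genes 21.2% were lower in siControl and 19.7% in siRFX7. The list medians were -3.38 in siControl and -3.46 in siRFX7. The difference was called below 0 for 3 and above 0 for 3, against 2.92% and 3.28% of all genes, with a median of 0.09. MCM10 stood at -1.57 and MCM7 at -0.68, and the licensing inhibitor GMNN at 0.63 and GINS1 at 0.56. The G2/M members and the licensing genes were not tested against each other.

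**Figure D5:**
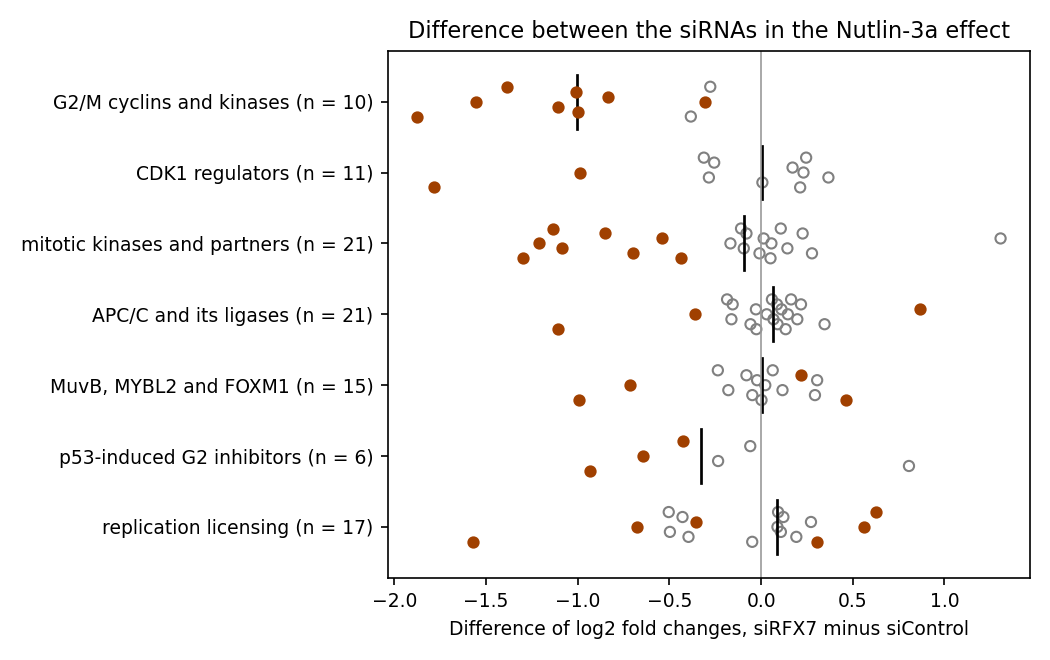
Difference of the Nutlin-3a log2 fold changes, siRFX7 minus siControl, for the 10 genes and 6 pathway lists, 1 point per listed gene, filled at an adjusted p below 0.05 and open otherwise. Vertical bars mark list medians. The median is -1.01 for the 10 genes and between -0.33 and 0.09 for the other lists. Single genes in the other lists range from -1.79 (GTSE1) to 1.31 (AURKC, not called). Except for replication licensing, these lists include genes not lowered by Nutlin-3a, so their medians do not describe repressed genes alone.

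The 5 protein-coding genes nearest to the members' median pattern were found by the Euclidean distance of 3 log2 fold changes (Nutlin-3a under each siRNA, and siRFX7 in DMSO) among genes with a mean of at least 100 normalized counts. They were PIMREG at a distance of 0.19, UBE2C at 0.25, CENPF at 0.27, TROAP at 0.33 and MYBL2 at 0.33, over the 4 groups. PIMREG had log2 fold changes of -4.44 and -5.38 with Nutlin-3a, and CENPF, a kinetochore protein of G2 and mitosis, of -4.23 and -5.27. TROAP, a spindle protein, had -4.56 and -5.65. These genes were chosen on these same values, so their likeness to the members follows from the choice and is no separate result.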

How the data were processed

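PolyA RNA of 12 HCT116 libraries (4 groups of 3, 500 ng of total RNA each) was sequenced. Per the submitters' processing notes, the tools included Trimmomatic 0.39, cutadapt 2.10, SAMtools 1.10, featureCounts 1.6.5 and DESeq2 1.20.0, with build hg38. The aligner, annotation and strand setting are not given in the sources used here, so reads shared with pseudogenes or overlapping genes cannot be resolved.

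The authors deposited 4 DESeq2 tables. Per the file headers they hold a mean normalized count, a signal averaged over libraries. The deposited log2 fold changes and standard errors are on a log2 scale, the deposited statistic is a score equal to their quotient, and p-values and adjusted p-values are the authors'. Fold changes of the knockdown tables were taken as siRFX7 relative to siControl, since the 4 tables then closed to 1.29e-14 (median error 0.374 otherwise). Genes were called at an adjusted p below 0.05.

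Computed here (Python 3.11.15, numpy 2.4.6, pandas 2.3.3, scipy 1.17.1) were group means, which assume equal weight of the 4 groups, and the two-sided z test of the difference between both Nutlin-3a effects, tested on simulated data and adjusted by Benjamini-Hochberg over 23195 genes. It treats the standard errors as known, as did the simulation, which therefore could not check them. Median standard errors were 0.0869 to 0.0877 for genes with at least 100 mean counts, and values under 3 counts were taken as not detectable (counting error only). GENCODE 29 matched 23164 of 23195 identifiers. Alternatives changed the threshold, minimum change, adjustment, scaling, count filter, distribution, pseudogene counts and motif window. Members and lists were chosen with earlier results of these data known. Named genes were the members, RFX7, MDM2, CDKN1A, members of the pathway lists where described, pseudogenes named after members, and the 5 nearest genes.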

Additional observations from a re-analysis of the deposited data

Results flagged for a closer look

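For 8 of the 10 genes the response to Nutlin-3a was not the same under both siRNAs by the z test of the difference adjusted over all genes. Of all 23195 genes, 2.92% were called below 0 and 3.28% above. With a t distribution on 8 degrees of freedom, CDC25C and CDC25B lost their calls and CCNA2 passed narrowly (adjusted p 0.0499). The differences, siRFX7 minus siControl on the log2 scale, were -1.88 for NEK2, -1.55 for CCNB2, -1.39 for CDC25C, -1.11 for PLK1, -1.01 for CDC20, -0.999 for CCNB1, -0.83 for CCNA2 and -0.31 for CDC25B. Each is a deeper fall in siRFX7. With no value per library, how many replicates show the direction is unknown.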

How the results depend on the processing

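The count of members called lower with Nutlin-3a stayed at 10 under each siRNA in all alternatives run, that with siRFX7 in Nutlin-3a was 8 to 10, and that of the difference 6 to 9. The DMSO count of 7 fell to 0 with a minimum absolute log2 value of 0.58 and to 4 with Bonferroni adjustment, and AURKA in DMSO reversed to 0.011 with equal summed counts and 0.040 with the housekeeping median. Over all genes, 1437 calls of the difference became 863 at a threshold of 0.01, 544 with the minimum value, 392 with Bonferroni and 274 with the t distribution, and the equal-sum scaling gave 792 below and 583 above 0 against 677 and 760. The minimum value and Bonferroni left 5198 and 5381 of 10022 Nutlin-3a calls in siControl, 4830 and 5012 of 9601 in siRFX7, 1547 and 1940 of 5811 siRFX7 calls in DMSO, and 1482 and 1915 of 5554 in Nutlin-3a. The motif count was 6 of 9 genes in both windows and 8 with the added variants. No paired analysis was possible because the tables hold statistics of groups and no value per library, and leaving out a replicate was not run for the same reason. The levels of CDC25C and NEK2 in siRFX7 Nutlin-3a rest on 6.06 and 10.4 counts per library, which limits their precision.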
